A study of Mus musculus with 24 samples.

Results

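The genes described here are 10 transcription factors of fat cell formation (Pparg, Cebpa, Cebpb, Cebpd, Klf15, Ebf1, Ebf2, Rxra, Zbtb16 and Klf4), taken by name from the 24421 gene symbols counted in mouse adipose tissue. Making a fat cell from a progenitor proceeds as a relay. Hormonal cues, glucocorticoid among them, first switch on the C/EBP family members Cebpb and Cebpd, with Klf4 acting just upstream, and these then help to switch on Pparg and Cebpa, which sustain each other and the genes of the mature fat cell. STAT5, the transcription factor activated by growth hormone and prolactin, is known to promote this relay and to act on Pparg. The question asked of the data was how the level of each factor stood in animals carrying either of the STAT5B substitutions, in each sex.

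Total RNA of adipose tissue from C57BL/6 mice of 2 months was sequenced after removal of ribosomal RNA. The genotypes compared were wild type (WT), STAT5B-Y665F and STAT5B-Y665H, the mutants carrying phenylalanine or histidine in place of a tyrosine of the SH2 domain by which STAT5 binds phosphorylated partners. Males and females of each genotype gave 6 groups of 4 libraries. Which fat depot was taken, whether the mutant allele was on 1 or both chromosomes, and whether each library came from its own animal are not given in the sources used here, so p-values measure the spread between these libraries.

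Counts assigned to genes ran from 20982647 to 41345247 per library, and 3 counts, the upper limit that a count of 0 allows, corresponded to 0.0726 to 0.143 CPM, which is a gene's count divided by all gene counts of its library and multiplied by 1000000. The 10 factors had 211 to 55549 counts per library, and all 10 passed the filter on low counts in each comparison. All 6 adipocyte markers (Adipoq, Plin1, Fabp4, Cidec, Lep, Pnpla2) averaged at least 1 CPM in each group. One library stood furthest apart. WT male 2 held 13700 CPM of 8 epididymis markers summed, against 1.12, 3200 and 1210 CPM in WT males 1, 3 and 4 and at most 0.584 in any female. Its adipocyte markers summed to 4740 CPM against 10000 to 12600 in the other WT males. The mutant males held epididymis markers too, from 0.0251 to 955 CPM in Y665F and from 1.67 to 1600 CPM in Y665H. Leaving out WT male 2 therefore does not remove these markers from the male comparisons. Y665F female 3 held 1480 CPM of 8 epithelial markers, against 64.6 to 248 CPM in the other Y665F females, and 8220 CPM of the adipocyte markers, the lowest of the Y665F females. The ribosomal RNA precursor Rn45s took 5.56 to 8.40% of gene counts in WT females, 4.37 to 6.54% in Y665F females and 3.27 to 5.18% in Y665H females. In males it took 6.68 to 9.88% in WT, 9.06 to 14.98% in Y665F and 4.02 to 7.53% in Y665H. In bulk tissue, fewer cells of a type and less RNA per cell cannot be told apart.

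The promoters of the 2 factors that were called in at least 1 comparison, Pparg and Klf15, are shown, Pparg for its several start sites, which the gene counts add together, and Klf15 for a repeated element. Promoter sequences from RefSeq (GRCm38.p6) matched 7 of the 10 factors, in 11 windows. Cebpd, Ebf2 and Zbtb16 had no entry. Pparg has 3 start sites in that table, each beginning a different first exon, and the 120 bases before each are given from the most upstream to the most downstream, as chr6:115361024-115361143, chr6:115362229-115362348 and chr6:115421946-115422065, all on the plus strand.
Pparg, upstream start: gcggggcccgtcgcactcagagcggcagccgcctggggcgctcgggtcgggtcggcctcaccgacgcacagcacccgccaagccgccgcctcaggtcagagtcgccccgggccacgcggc
Pparg, middle start: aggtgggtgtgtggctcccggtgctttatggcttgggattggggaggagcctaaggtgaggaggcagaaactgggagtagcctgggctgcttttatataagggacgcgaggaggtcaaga
Pparg, downstream start: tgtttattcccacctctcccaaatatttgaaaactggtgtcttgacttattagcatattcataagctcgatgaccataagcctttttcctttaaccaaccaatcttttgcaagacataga
Their GC content was 79.2, 56.7 and 35.8%, so the start sites lie in sequence of very different composition. The counts are per gene and do not separate transcripts from these starts, so every Pparg value below is their sum.

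The 250 bases before the start of Klf15 (chr6:90462326-90462575, plus strand) hold the palindrome CACGTG at 228 and 172 bases upstream, printed in capitals. It is the E-box core bound by basic helix-loop-helix factors, the circadian clock proteins among them.
Klf15: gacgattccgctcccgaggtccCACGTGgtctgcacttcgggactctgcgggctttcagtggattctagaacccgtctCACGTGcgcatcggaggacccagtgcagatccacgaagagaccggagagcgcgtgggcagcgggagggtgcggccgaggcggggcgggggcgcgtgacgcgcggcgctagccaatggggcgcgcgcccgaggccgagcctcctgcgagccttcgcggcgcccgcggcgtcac
CACGTG was looked for after this window had been read. It occurred in 7.15% of the 32851 windows of 300 bases in the table and in 2 of the 11 windows of the factors, those of Klf15 and Klf4. The Klf15 window held 3 copies when its 50 bases after the start were included, a number reached or passed in 0.0883% of all windows. The STAT5 site core TTCNNNGAA was in 8.3% of all windows and the glucocorticoid receptor half-site pair ACANNNTGT in 6.85%, and neither was in any of the 11 windows. Both strands were searched, and each of these motifs reads the same on both when N is any base. The shares over all windows are not matched for composition. GC content was 73.3% in the Klf15 window of 300 bases and 36.7 to 83.0% in the 11 windows, against a median of 52.7% over all. A match is a description of letters, and none of these windows was measured for binding.

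Cebpa, the factor that with Pparg holds the mature state, was by far the most abundant of the 10 per length of exon. Over the 24 libraries its mean was 408.9 CPM per kb, and it ranked first in all 24. Pparg followed at 66.4 CPM per kb. Pparg was above Rxra, its obligate dimer partner, in 21 of 24 libraries. Rxra (52.5 CPM per kb) and Zbtb16 (52.2 CPM per kb) did not separate, Rxra being above in 14 of 24. Klf15 averaged 28.8, Klf4 25.6, Cebpb 19.0 and Ebf1 16.8 CPM per kb. Ebf1 was above Ebf2 (7.57 CPM per kb) in all 24 libraries. Ebf2 and Cebpd (6.48 CPM per kb) held the lowest 2 places and changed order between libraries, Ebf2 being above in 15 of 24. The spread of each factor over the libraries did not follow its level. Between the lowest and the highest library, Cebpd differed 9.59-fold and Zbtb16 6.10-fold in CPM, whereas Rxra differed 1.96-fold and Klf15 2.25-fold.

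**Figure D1:**
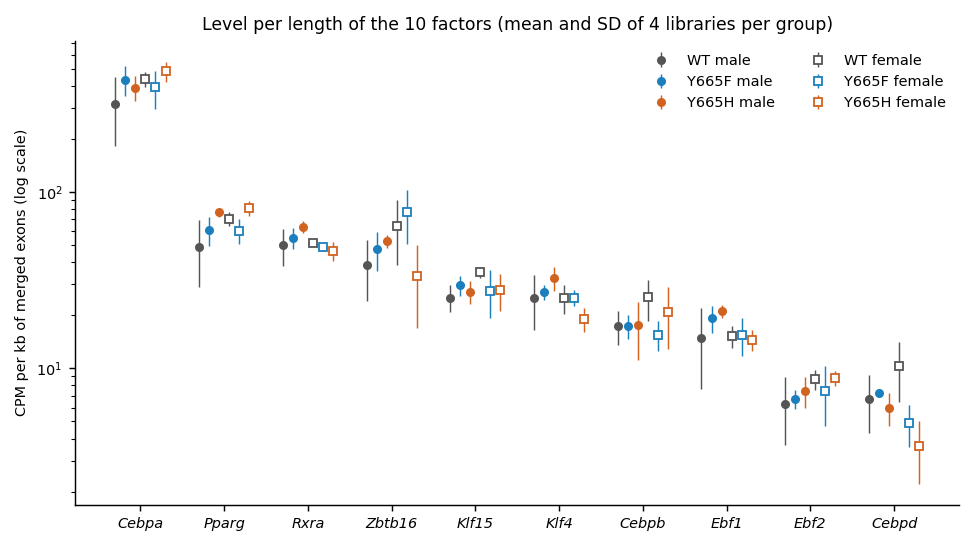
Mean and SD of CPM per kb of merged exons (log axis) for the 10 factors in the 6 groups of 4 libraries, filled circles for males and open squares for females. Cebpa stood highest in each group, and Ebf2 and Cebpd were the lowest over the 24 libraries, at 7.57 and 6.48 CPM per kb.

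**Figure D2:**
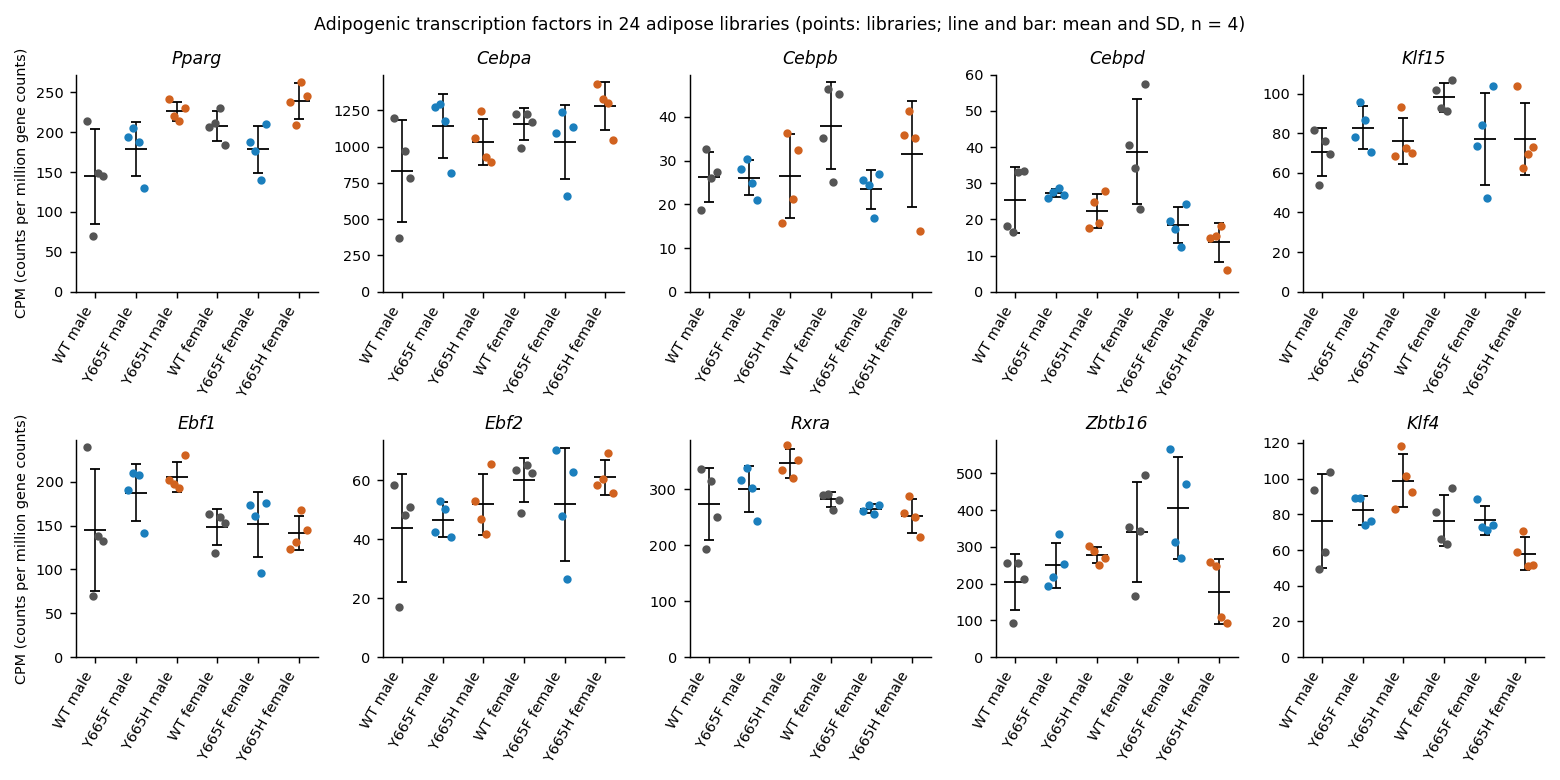
CPM of each factor in each library (points) with the group mean and SD (n = 4). Pparg in Y665H females lay between 209.0 and 262.8 CPM against 139.7 to 209.8 in Y665F females, and Cebpd was highest in WT females, at 22.9 to 57.5 CPM.

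Pparg was the only factor that edgeR called between the mutants in females. It stood at 188.2, 176.7, 139.7 and 209.8 CPM in Y665F females 1 to 4 and at 238.3, 209.0, 262.8 and 245.5 CPM in Y665H females 1 to 4. WT females lay between, at 206.9, 211.5, 230.2 and 184.2 CPM. In CPM, which uses plain library totals, the mutant groups met at 1 point only, Y665F female 4 being level with Y665H female 2. The means were 178.6 ± 29.4 CPM in Y665F and 238.9 ± 22.4 CPM in Y665H (SD, n = 4 each). With composition-adjusted library sizes, Pparg was higher in Y665H by 0.56 on the log2 scale (SE 0.14, edgeR quasi-likelihood test, Benjamini-Hochberg adjusted p = 0.0292). In this comparison 17.4% of 15493 genes were called, and 8.77% as higher in Y665H. Scaled by plain library totals, the median of all genes moved from -0.03 to -0.18, the genes called were 799 higher and 2406 lower instead of 1358 and 1331, and Pparg was at 0.42 (adjusted p = 0.0533). The call was close to the threshold. It was kept without Y665F female 3, 4 or Y665H female 2 (adjusted p = 0.0198, 0.0349 and 0.0326), and lost without any other library of either group, with adjusted p from 0.0589 (without Y665F female 2) to 0.0782 (without Y665H female 1). The fit over all 24 libraries gave an adjusted p of 0.121, while DESeq2 gave 0.00199.

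Against WT, neither mutant's Pparg difference passed in females. Y665F was lower by a log2 difference of -0.35 (SE 0.14, edgeR adjusted p = 0.157), and Y665H higher by 0.21 (SE 0.11, adjusted p = 0.253). The intervals of 2 SE ran from -0.63 to -0.08 and from 0.0030 to 0.43. The mutants thus lay on either side of WT, neither of them apart from it by this test. Summed adipocyte markers ran alongside, at 8220 to 13400 CPM in Y665F females and 12100 to 15400 CPM in Y665H females, and T and NK cell markers the other way, at 33.6 to 47.4 CPM and 7.06 to 21.0 CPM. Their part in the Pparg difference was not tested.

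Cebpa and Rxra, the partners of Pparg in sustaining and in binding, were not called between the mutants. Cebpa stood at 1097, 1237, 660.0 and 1137 CPM in Y665F females and at 1435, 1331, 1301 and 1044 CPM in Y665H females, with Y665F female 3 far below the rest. The log2 difference was 0.45 (SE 0.22, edgeR adjusted p = 0.194). Rxra was the steadiest of the factors in females. It lay at 263.8 to 291.9 CPM in WT, 255.1 to 271.9 CPM in Y665F and 213.9 to 288.1 CPM in Y665H. Its difference of Y665F from WT, though small, was -0.22 (SE 0.08, edgeR adjusted p = 0.132), and DESeq2 called it at an adjusted p of 0.0209. Between Y665H and Y665F females, the Rxra difference was 0.08 (2 SE interval from -0.14 to 0.29).

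**Figure D3:**
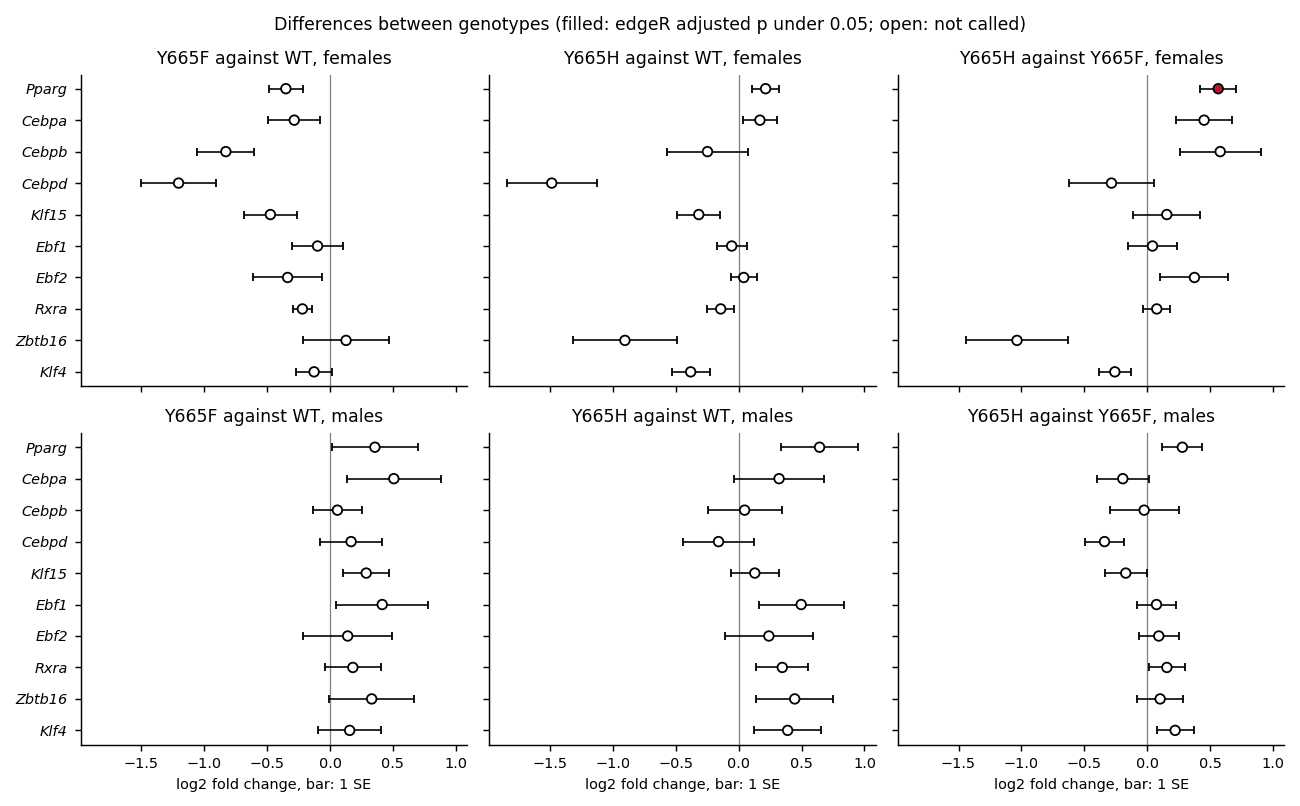
Log2 fold change (point) and 1 SE (bar) of each factor for the 3 genotype comparisons in females (upper row) and males (lower row), filled where the edgeR adjusted p was under 0.05. Only Pparg in Y665H against Y665F females, at 0.56, is filled, and Cebpd has the lowest values against WT in females, at -1.20 and -1.49.

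Cebpd, one of the early C/EBP factors, had the largest differences from WT of any of the 10 in females, and in both mutants it was lower without reaching the threshold. WT females held 40.5, 34.1, 22.9 and 57.5 CPM. Y665F females held 19.5, 17.3, 12.5 and 24.4 CPM, and Y665H females 14.7, 15.5, 18.3 and 6.0 CPM. All 4 Y665H females were below all 4 WT females, as was so for 6.81% of genes, and in Y665F females only replicate 4 exceeded the lowest WT female. The log2 differences were -1.20 (SE 0.30) for Y665F and -1.49 (SE 0.36) for Y665H, with edgeR adjusted p of 0.0643 and 0.056. DESeq2 and the fit over all 24 libraries called both, at adjusted p of 0.00134 and 0.0438 for Y665F and 0.000445 and 0.0285 for Y665H. WT female 3, the lowest of its group, decided the Y665H call in edgeR, which passed without it at an adjusted p of 0.0321. Both comparisons use the same WT females. The mutants did not separate from each other in Cebpd (-0.28, SE 0.34, adjusted p = 0.593).

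Cebpb, the other early C/EBP factor, was measured in WT females at 35.2, 46.4, 25.0 and 45.2 CPM. Y665F females had 25.6, 24.3, 16.9 and 26.9 CPM. Of the Y665F females, 2 were above the lowest WT female. The log2 difference was -0.83 (SE 0.23, edgeR adjusted p = 0.081), and DESeq2 called it at 0.00819. In Y665H females 3 libraries (35.9, 41.3 and 35.1 CPM) lay within the WT range and replicate 4 at 13.9 CPM below it. Without that library, Cebpb was called higher in Y665H than in Y665F females (0.83, edgeR adjusted p = 0.0231), whereas with it the difference was 0.58 (SE 0.32, adjusted p = 0.24). Cebpb and Cebpd lie over genes of the opposite strand that were also counted, Tmem189 (mean 52.4 CPM) and Spidr (11.7 CPM). The kit marks strand, but the strand setting of the counting is not given in the sources used here, so reads of each pair may not have been told apart.

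In the females as a set, 0 of the 10 factors were called by edgeR for Y665F against WT, where 3.33% of 15642 genes were called, and 0 for Y665H against WT, where 3.34% of 15469 genes were called. At an unadjusted p under 0.05 there were 4 (Cebpb, Cebpd, Pparg and Rxra) and 2 (Cebpd and Klf4). Of all genes, 4107 of 15642 and 3679 of 15469 were under it. DESeq2 called 3 (Cebpb, Cebpd and Rxra) and 1 (Cebpd), and the fit over all 24 libraries called Cebpd alone in both. Of all genes, DESeq2 called 2030 of 15642 and 1782 of 15469, and that fit 512 and 250 of 17157. For Y665F, 9 of 10 factors had negative log2 differences, with a median of -0.31 against 0.02 over all genes tested. This count depends on the scaling, since with plain library totals it was 7 of 10, with a median of -0.19 against 0.15 over all genes, and the genes called were 1025 higher and 139 lower instead of 361 and 160. With composition-adjusted sizes but without Y665F female 3, 8 of 10 were negative, with a median of -0.15 against -0.0037 over all genes. For Y665H, 7 of 10 were negative, with a median of -0.20 against -0.0046 over all genes.

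Klf15 and Zbtb16 are both known as genes that glucocorticoid induces, Klf15 acting late in the relay and on the glucose transporter gene Slc2a4, and Zbtb16 encoding the zinc finger protein PLZF. Klf15 in WT females was tightly grouped, at 101.6, 92.9, 91.0 and 106.6 CPM. Y665F females spread from 47.5 to 103.6 CPM and Y665H females from 62.6 to 103.7 CPM, each overlapping WT with 1 library. Neither difference was called (-0.47, SE 0.21, and -0.32, SE 0.17, edgeR adjusted p = 0.198 and 0.29).

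Zbtb16 had the largest difference of the 10 between the mutants in females, but it was not called. Y665F females held 567.5, 313.5, 270.9 and 472.3 CPM, and Y665H females 259.7, 247.4, 109.5 and 93.0 CPM. The groups did not overlap, and a separation in this direction was found for 21.5% of genes in this comparison. The nearest libraries were at 259.7 and 270.9 CPM, and these CPM use plain library totals, unlike the log2 differences. The log2 difference was -1.04 (SE 0.41, edgeR adjusted p = 0.114), and DESeq2 called it at 0.0326. WT females covered most of the range, at 355.3, 165.3, 344.1 and 495.9 CPM, and Y665H differed from WT by -0.90 (SE 0.41, adjusted p = 0.222). Klf4, the early factor upstream of Cebpb, was also lower without overlap in Y665H (51.2 to 70.5 CPM) than in Y665F females (71.3 to 88.7 CPM). Its difference was -0.26 (SE 0.13, adjusted p = 0.198), and -0.40 (adjusted p = 0.0471) with plain library totals.

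Ebf1 and Ebf2, factors that act on the progenitor and, for Ebf2, in brown and beige fat cells, had the smallest differences from WT in Y665H females. Ebf1 differed by -0.06 (SE 0.12) and Ebf2 by 0.04 (SE 0.10), with 2 SE intervals from -0.30 to 0.18 and from -0.17 to 0.25. In Y665F females both were lowest in replicate 3 (96.5 and 26.4 CPM), against 160.8 to 175.4 CPM and 47.9 to 70.1 CPM in the other 3. Their differences from WT were -0.10 (SE 0.20) and -0.34 (SE 0.27). Thermogenic markers, of which Ebf2 is a known regulator, spread far more than Ebf2 itself. They summed to 45.1 to 95.3 CPM in WT females, 12.1 to 25.5 CPM in Y665F females and 47.7 to 218 CPM in Y665H females. Skeletal muscle markers also differed between these libraries, from 38.3 to 186 CPM in Y665F and from 28.5 to 2280 CPM in Y665H females, and their part was not tested.

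In males no factor was called in any genotype comparison. Pparg stood at 214.2, 69.4, 149.5 and 145.5 CPM in WT males, at 194.4, 204.9, 188.2 and 129.9 CPM in Y665F males and at 241.1, 220.7, 213.5 and 230.3 CPM in Y665H males. The Y665H males were all above the Y665F males, as 6.29% of 15986 genes were, with a log2 difference of 0.28 (SE 0.16, edgeR adjusted p = 0.399). CPM counts Rn45s in the total, and its share was 9.06 to 14.98% in Y665F males and 4.02 to 7.53% in Y665H males. The part of that share in the separation was not tested. Against WT the Y665H difference was 0.64 (SE 0.31, adjusted p = 0.402). Without WT male 2, the library richest in epididymis markers, the difference was 0.43, and without WT male 1, the highest WT male, it was 0.97 (adjusted p = 0.0848).

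WT male 2 was the lowest of the WT males for each factor except Cebpb, which was highest there, at 32.6 CPM. For Y665F against WT males, 10 of 10 factors had positive differences with a median of 0.23 (all genes -0.04), 9 of 10 with a median of 0.13 without WT male 2, and 9 of 10 with a median of 0.37 without WT male 1. For Y665H, 9 of 10 were positive with a median of 0.33 (all genes -0.055), 8 of 10 with a median of 0.20 without WT male 2, and 8 of 10 with a median of 0.55 without WT male 1. The edgeR calls over all genes were 0% of 16240 for Y665F and 0% of 16406 for Y665H against WT, with 2772 and 1874 genes at an unadjusted p under 0.05. Without WT male 1, 570 genes were called for Y665F and 1 for Y665H, no factor among them. With all libraries, none of the 10 factors was under 0.05 before adjustment in either. DESeq2 called 1036 and 64 genes and the fit over all 24 libraries 2261 and 203, no factor among them. Between the mutant males, 1.03% of 15986 genes were called. No factor was among them, none was under an unadjusted p of 0.05, where 2879 genes were, and DESeq2 called 0.

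Among WT animals, Klf15 was the only factor that edgeR called between the sexes. Zbtb16 (-0.87), Cebpd (-0.77), Cebpb and Pparg had larger log2 differences that were not called. For Klf15, males held 81.7, 53.6, 76.2 and 69.7 CPM and females 91.0 to 106.6 CPM, so that all males were below all females, as was so for 7.01% of genes. It fell by 0.62 on the log2 scale in males (SE 0.15, edgeR adjusted p = 0.0335), the only factor called where 13.1% of 15865 genes were called, and 5.95% as lower in males. The call held without WT male 1 (adjusted p = 0.0103) and WT male 2 (0.0357), and was lost without WT male 3 (0.0664) or 4 (0.066) and without WT female 1 (0.0958), 2 (0.0851), 3 (0.0773) or 4 (0.0991). All 10 factors had negative differences, with a median of -0.62 (all genes 0.04). Without WT male 2, 8 of 10 were negative, with a median of -0.40. With plain library totals 9 of 10 were, with a median of -0.46 (all genes 0.22), and the genes called were 2111 higher and 674 lower instead of 1135 and 944. Pparg differed by -0.66 (SE 0.30, adjusted p = 0.164) and, without WT male 1, was called at -0.95 (adjusted p = 0.0353). Cebpb (-0.69, SE 0.23, adjusted p = 0.0754) was called by DESeq2 at 0.0265. The depot is not given, so a difference of depot between the sexes cannot be told apart from sex. Epididymis markers were at or near 0 in each female group, 7 of 8 being at 0 in WT females.

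Whether a mutant's difference from WT depended on sex was tested as an interaction, the male difference minus the female one. No factor was called (edgeR, 0% of 16732 genes for Y665F and 0.0119% of 16827 for Y665H), with 3 factors under an unadjusted p of 0.05 in each. Of all genes, 3645 for Y665F and 3079 for Y665H were under it. Cebpd had the largest value for Y665F, 1.38 (SE 0.40, edgeR adjusted p = 0.131), which DESeq2 called at 0.0262. For Y665H, Cebpd gave 1.33 (SE 0.49, adjusted p = 0.207) and Zbtb16 1.35 (SE 0.56, adjusted p = 0.238), and DESeq2 called 0 factors. In males Cebpd held 18.1, 16.6, 33.0 and 33.3 CPM in WT, 26.0, 27.7, 28.7 and 26.8 CPM in Y665F and 17.6, 24.7, 19.1 and 27.7 CPM in Y665H. Both mutant groups lay inside the WT male range, whose lower end was WT male 2. Without that library, Y665H male 1 lay below the lowest WT male. Without WT male 1 edgeR called 1686 genes for the Y665F interaction and 1844 for Y665H. Of the factors, Ebf1 was called there for Y665H (0.98, adjusted p = 0.0327) and none for Y665F. Between the mutants, where 0.868% of 16481 genes were called, 0 factors were called, and DESeq2 called 0. At an unadjusted p under 0.05 were 2 factors (Zbtb16 and Klf4) and 2528 of all genes.

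Genes that glucocorticoid induces in many tissues, a list of 12, stood beside Cebpd in females. In Y665H females 11 of 12 had negative differences from WT, with a median of -0.99 (all genes -0.0046), and 3 fell, where 3.34% of genes were called. Tsc22d3, which encodes the glucocorticoid-induced leucine zipper protein, stood at 183.1 to 257.9 CPM in WT females and 73.6 to 110.4 CPM in Y665H females. It fell by 1.10 (SE 0.15, edgeR adjusted p = 0.0148). Dusp1, a phosphatase of MAP kinases, fell by 1.08 (SE 0.19, adjusted p = 0.0248), and Errfi1, a feedback inhibitor of the EGF receptor, fell by 1.00 (SE 0.18, adjusted p = 0.0284). These calls were kept in 5, 2 and 1 of 8 omissions of a library, with adjusted p up to 0.0659, 0.0846 and 0.0952. DESeq2 called 6 of the 12, where it called 1782 of 15469 genes, and the fit over all 24 libraries 1, Tsc22d3. In Y665F females all 12 were negative with a median of -0.62. There edgeR called 0, with 6 at an unadjusted p under 0.05, as were 4107 of 15642 genes. DESeq2 called 4, where it called 2030 of 15642 genes. Dusp1 is also an immediate early gene, of which 4 of 10 had positive differences in Y665H females.

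**Figure D4:**
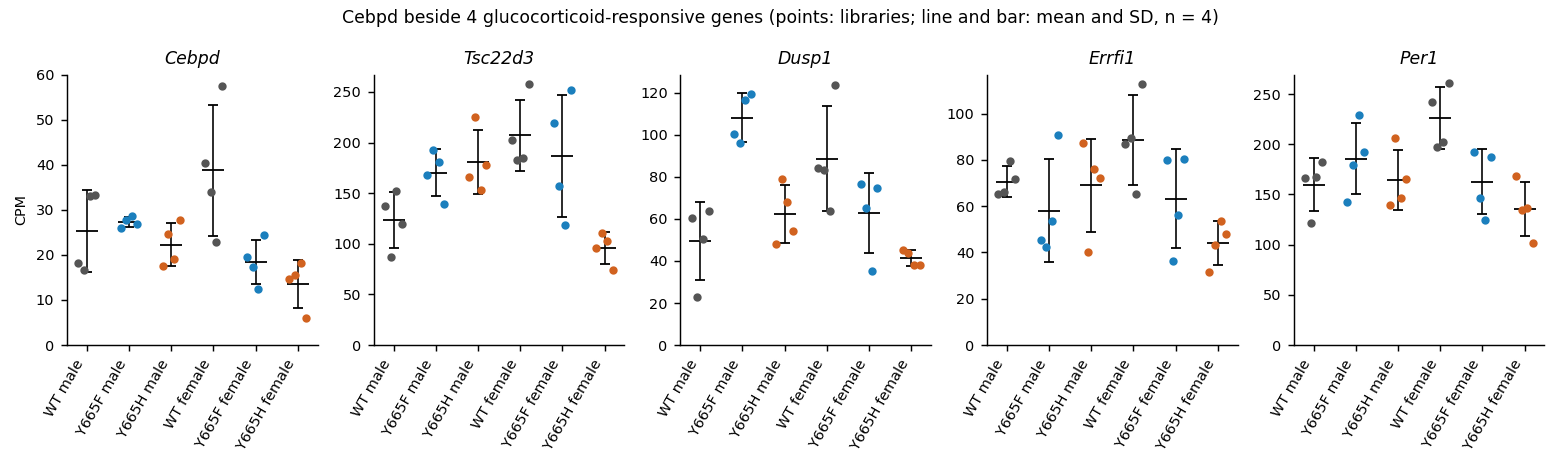
CPM of Cebpd and 4 genes that glucocorticoid induces, in each library (points) with group mean and SD (n = 4). In Y665H females Cebpd (6.0 to 18.3 CPM), Tsc22d3 (73.6 to 110.4 CPM) and Dusp1 (38.2 to 45.3 CPM) all lay below the WT females.

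Other genes of the relay were followed as lists of 20 factors and cofactors that promote it, 16 that restrain it and 18 genes of the mature fat cell, most of the last being targets of Pparg and Cebpa. Between Y665H and Y665F females, in which Pparg was called higher, 5 of the 20 promoting genes rose and 1 fell. Srebf1, the lipid synthesis factor SREBP1, rose from 361.3 ± 81.4 to 695.1 ± 148.4 CPM, by 1.10 (SE 0.22, edgeR adjusted p = 0.0136), and the call held without any 1 library. Ppargc1b, a coactivator of nuclear receptors, rose from 19.8 ± 2.81 to 29.1 ± 0.61 CPM, by 0.71 (SE 0.11, adjusted p = 0.00453), also with each library left out. Nr1h3, the sterol receptor LXR alpha, rose by 0.58 (SE 0.13, adjusted p = 0.0206), and Ppargc1a, the related coactivator of thermogenic cells, by 1.52 (SE 0.38, adjusted p = 0.0291). These calls were kept in 6 and 3 of 8 omissions of a library, with adjusted p up to 0.0594 for Nr1h3 and 0.0735 for Ppargc1a. The other rise was the coactivator Ncoa1, and the 1 that fell was Klf6, both named after their values were seen.

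Of the 18 fat cell genes, 17 had positive differences in that comparison, with a median of 0.53 (all genes -0.03), and 4 rose. Without Y665F female 3, 17 were positive with a median of 0.41, 6 rose and 1 fell. Agpat2, an enzyme of triglyceride synthesis, rose from 145.4 ± 47.8 to 513.3 ± 75.3 CPM, by 1.97 (SE 0.26, adjusted p = 0.00251), and Cfd, the adipocyte product adipsin, by 1.29 (SE 0.23, adjusted p = 0.00755). Both calls held without any 1 library. Acsl1, which activates fatty acids, rose by 1.03 (adjusted p = 0.018) and Gpd1, which supplies glycerol phosphate, by 1.52 (adjusted p = 0.028), kept in 6 and 5 of 8 omissions. Of the 16 restraining genes, only Sox9 was called, higher in Y665H by 0.81 (SE 0.20, adjusted p = 0.0274) at low levels of 2.13 to 4.74 CPM, and kept in 3 of 8 omissions. The share of all genes called here, 17.4%, applies to these lists too. In the same comparison edgeR called 7 of 8 B cell, 6 of 9 T and NK cell and 5 of 8 macrophage markers lower in Y665H, and 6 of 10 muscle and 5 of 7 thermogenic markers higher. Their part in the fat cell differences was not tested. Against WT females, all 18 fat cell genes were negative in Y665F with a median of -0.44. There edgeR called 0, with 5 of the 18 at an unadjusted p under 0.05, as were 4107 of 15642 genes. DESeq2 called 5, where it called 2030 of 15642 genes. Without Y665F female 3, all 18 were negative with a median of -0.26, and edgeR called 1 lower. In Y665H against WT 12 were positive, and edgeR called 3 of the 18, where 3.34% of 15469 genes were called. Cfd and Acsl1 rose by 0.85 and 0.61, and Lep, the satiety hormone leptin, fell by 1.06 (SE 0.18, adjusted p = 0.025). These calls were kept in 4, 1 and 4 of 8 omissions, and in none of the 3 genes by the fit over all 24 libraries.

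**Figure D5:**
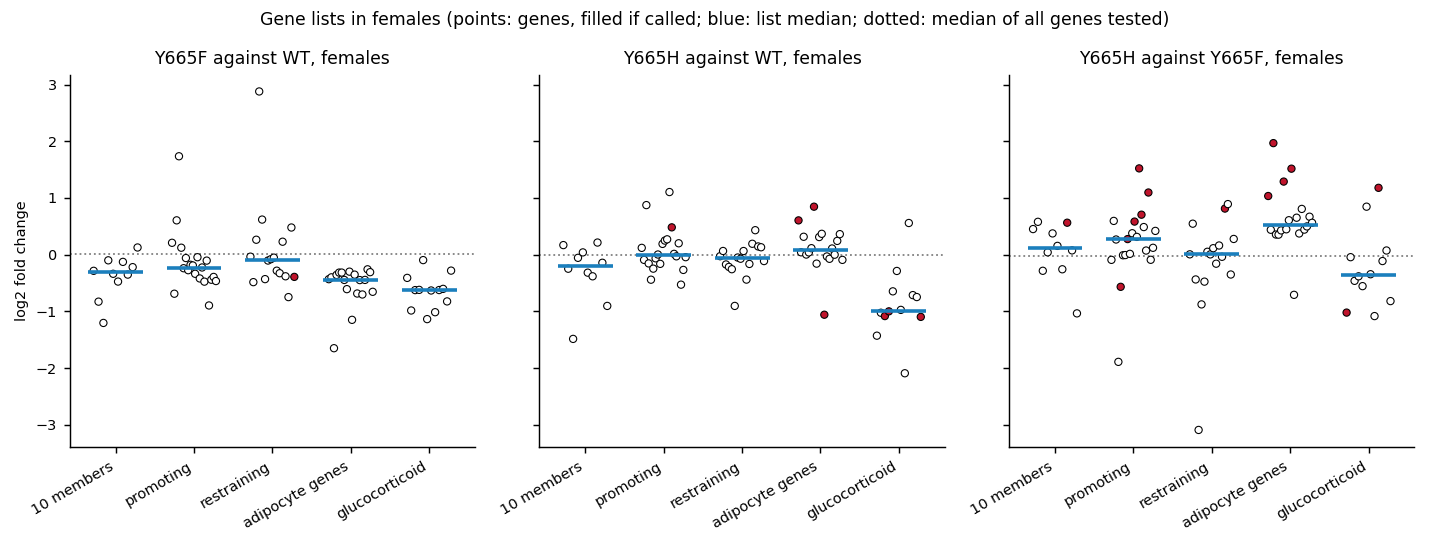
Log2 fold change of each gene (points, filled where called by edgeR) in the 10 factors and 4 gene lists for the 3 genotype comparisons in females, with each list's median (blue) and the median of all genes tested (dotted). In Y665H against Y665F the fat cell genes have a median of 0.53 and the 10 factors 0.12, and in Y665H against WT the glucocorticoid-induced genes have a median of -0.99.

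Male and female differed in these lists as well among WT animals, where 13.1% of all genes were called. None of the 18 fat cell genes was higher in males, with a median of -0.78, and Acsl1 and Gpd1 fell by 1.28 and 1.21 (edgeR adjusted p = 0.0206 and 0.0448, kept in 3 and 1 of 8 omissions of a library). WT male 2 held the lowest sum of these 18 genes, 12300 CPM against 27200 to 33400 CPM in the other WT males. Without it 1 of the 18 was higher in males, the median was -0.57, and 3 fell. Without WT male 1 the median was -0.97, and 7 fell. Of the 12 genes that glucocorticoid induces, 2 rose in males and 3 fell. Pdk4, a kinase that spares glucose, fell by 2.10 (SE 0.36, adjusted p = 0.0138, kept in 6 of 8), Tsc22d3 by 0.89 (adjusted p = 0.0296) and Per1, of the circadian clock, by 0.65 (adjusted p = 0.0328). Lcn2, which encodes lipocalin 2, was at 8.52, 1280, 143.5 and 50.5 CPM in WT males and 0.27 to 0.65 CPM in WT females, highest in WT male 2. It rose by 9.31 (SE 1.74, adjusted p = 0.0181), and by 6.85 (adjusted p = 0.00916) without that library. The other that rose was Fkbp5, named after its values were seen, by 1.68 (adjusted p = 0.0407), not called without WT male 2 (0.0705). It stood at 98.6, 206.8, 317.7 and 414.6 CPM in WT males 1, 4, 3 and 2. Fkbp5 and Lcn2 both increased in the order of the epididymis marker sums of these males, 1.12, 1210, 3200 and 13700 CPM. Of the restraining genes Sox9 rose by 3.50 (SE 0.54, adjusted p = 0.0107), from 2.31 to 4.04 CPM in females to 16.6 to 85.0 CPM in males, and by 2.73 (adjusted p = 0.00297) without WT male 2. WT males 3 and 4 remain in that omission, and the part of epididymis tissue in these rises was not tested. Among promoting genes, Ebf3, the relative of Ebf1 and Ebf2, fell by 1.04 (SE 0.23, adjusted p = 0.0277) and the coactivator Ncoa2 rose by 0.56 (SE 0.14, adjusted p = 0.0346), kept in 2 and 1 of 8. Of the interactions between the mutants, where edgeR called 0.868% of 16481 genes, Ppargc1b (-1.13, SE 0.16, adjusted p = 0.0106) and Agpat2 (-1.57, SE 0.34, adjusted p = 0.0476) were called. These calls were kept in 14 and 2 of 16 omissions, and by the fit over all 24 libraries neither was called (adjusted p = 0.138 and 0.181). The difference of Y665H from Y665F in Ppargc1b was -0.41 (SE 0.13, adjusted p = 0.16) in males and 0.71 in females, and in Agpat2 0.42 (SE 0.19, adjusted p = 0.29) in males and 1.97 in females.

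Across the 24 libraries, the genes whose pattern was most like that of each factor were found by Spearman correlation over 14828 genes. The values correlated were log2(CPM + 1), with CPM taken here on composition-adjusted (TMM) library sizes. They are given as a description, since libraries of a group share genotype, sex and tissue make-up. Pparg was nearest to Gid4 (0.929), Opa1 (0.927) and Hadh (0.921), the last 2 being genes of the mitochondrion. Cebpa was nearest to Ccm2 (0.919), Abhd15 (0.91) and Plin1 (0.908), which encodes the lipid droplet coat protein perilipin. Klf15 was nearest to Slc2a4 (0.85), the glucose transporter gene named above. Ebf1 was nearest to Sptbn1 (0.93) and Rxra to Ehd2 (0.945), the highest value for any of the 10. Ebf2 was nearest to Nova1 (0.876), Cebpb to Dusp23 (0.855), Klf4 to Ms4a6d (0.85) and Cebpd to Nup188 (0.837). The nearest gene to Zbtb16, Mcf2l, reached only 0.776, the lowest of the 10 best values.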

How the data were processed

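Total RNA libraries were made per the labels with a stranded, ribosomal RNA-depleted kit and sequenced as read pairs. The authors deposited raw read counts per gene for each library, against mm10. Per the submitters' processing notes, FastQC 0.11.9, Trimmomatic 0.36, STAR, SAMtools 1.9, Picard 2.9.2 and HTSeq 0.9.1 were used. The annotation and the strand setting of the counting are not given in the sources used here. Entries naming no gene took 24.8 to 39.7% of each file and were left out.

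Each comparison was fitted on the 2 groups it concerns (4 for an interaction) with edgeR 4.0.16 in R 4.3.3 (limma 3.58.1), by the quasi-likelihood test with TMM scaling and the filterByExpr rule, and called at a Benjamini-Hochberg adjusted p under 0.05 over all genes tested. An SE is the log2 fold change divided by the square root of the F statistic. CPM values use plain totals of gene counts, and CPM per kb divides by merged exons of GENCODE M21. Positions are those of that annotation: Pparg chr6:115360951-115490399, Cebpa chr7:35119293-35121928, Cebpb chr2:167688915-167690418, Cebpd chr16:15887286-15891031, Klf15 chr6:90462576-90475238, Ebf1 chr11:44617317-45008091, Ebf2 chr14:67233292-67430918, Rxra chr2:27676440-27762957, Zbtb16 chr9:48654297-48836222 and Klf4 chr4:55527143-55532466, the last 2 on the minus strand.

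The alternatives were DESeq2 1.42.0, its size factors within edgeR, plain library totals, no filter, 1 fit over all 24 libraries, a replicate block, and leaving out each library. Replicate numbers were not shown to pair libraries. In no comparison did all same-numbered libraries correlate above 0.1 (values from -0.381 to 0.734), which does not exclude pairing, since other tissue in single libraries can lower the values. No pair of libraries agreed within counting noise (lowest chi-square per degree of freedom 16.4).

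All 10 factors are named in each comparison. From every other list at most 4 called genes were named, by smallest p. The factors, lists and tests were chosen with earlier results of these data known. The fit was tested on simulated data, with 100 genes changed 2-fold and 100 changed 4-fold. Each gene was drawn independently with the spread typical of its level, and no library held other tissue. Recovery in the real data may therefore differ, and smaller changes were not simulated. For Y665F against WT it recovered 69% of genes changed 2-fold and 100% of those changed 4-fold in females (15499 genes), and 15% and 72% in males (16118 genes). For Y665H against Y665F females it recovered 61% and 97% (15388 genes).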

Additional observations from a re-analysis of the deposited data

Results flagged for a closer look

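A total of 3 values stood far from the other libraries of their group, in that the gap to the nearest library, as a share of the group's whole range, exceeded the limit of Dixon's test for 4 values. Klf15 in Y665H male 2 was the highest of its group at 93.1 CPM, the other 3 lying at 68.5 to 72.4 CPM, and its gap was 0.842 of the range. Ebf2 in WT female 2 was the lowest at 48.9 CPM, against 62.5 to 65.1 CPM in the other 3, with a gap of 0.838. Klf4 in Y665F female 1 was the highest at 88.7 CPM, against 71.3 to 74.1 CPM, with a gap of 0.841. In 60 groups of 4 tested, chance flags about 1 in 20, and 3 were found.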

How the results depend on the processing

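Over the 100 differences (10 factors in 10 comparisons), 574 of 600 values under the 6 other settings kept their direction and their side of the threshold, as did 983 of 1040 with 1 library left out. Only Pparg between mutant females and Klf15 between WT sexes were called, so for most values the side kept was that of no call. With 1 library left out, these calls were lost in 11 values. DESeq2 called 3 factors for Y665F against WT females, 1 for Y665H against WT females, 2 for Y665H against Y665F females, 2 for WT males against females and 1 for the Y665F interaction. Of all genes it called, in that order, 2030 of 15642, 1782 of 15469, 3897 of 15493, 3920 of 15865 and 1152 of 16732. The fit over all 24 libraries called 1, 1, 0 and 2 factors in the first 4 of these, and 512, 250, 2164 and 5987 of 17157 genes. The cause of these changes was not tested. Leaving out 1 library gave 0 to 1 factors for Y665H against WT females, 0 to 1 for Y665H against Y665F females, 0 to 2 for the sexes and 0 to 1 for the Y665H interaction.

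With the replicate number as a block, 2 factors (Cebpb and Cebpd) were called for Y665F against WT females, 0 for Y665H against Y665F females and 0 for WT males against females, and Cebpb in Y665H against WT males changed sign to -0.0231. Pparg between the mutant females then had an adjusted p of 0.0707 and Klf15 between WT sexes 0.064 by edgeR. The block moved the genes called from 516 to 32 for Y665H against WT females, from 2689 to 1583 for Y665H against Y665F females, from 2079 to 825 for the sexes, from 164 to 0 for Y665H against Y665F males, from 2 to 0 for the Y665H interaction and from 143 to 1 for that between mutants. The numbers were not shown to pair libraries.

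With plain library totals the sign changed for Cebpb in Y665F against WT males (-0.0135), Ebf1 and Klf4 in Y665F against WT females (0.0265 and 0.0049), Cebpb in Y665H against Y665F males (0.0198), Ebf1 and Rxra in Y665H against Y665F females (-0.096 and -0.072), Klf4 between WT sexes (0.0198) and Cebpd in the interaction between mutants (0.14). None of these was called. With 1 library left out, differences near 0 crossed it. In Y665F against WT males, Cebpb ran from -0.051 to 0.20 and Ebf2 from -0.10 to 0.34. In Y665F against WT females, Ebf1 ran from -0.19 to 0.0776 and Zbtb16 from -0.10 to 0.37. In Y665H against WT males, Cebpb ran from -0.18 to 0.24, Cebpd from -0.30 to 0.0322, Ebf2 from -0.0087 to 0.49 and Klf15 from -0.014 to 0.27. In Y665H against WT females, Cebpb ran from -0.40 to 0.0051 and Ebf2 from -0.038 to 0.0937. Between mutant males, Cebpb ran from -0.26 to 0.16, Ebf1 from -0.0607 to 0.15 and Ebf2 from -0.0209 to 0.19. Between mutant females, Ebf1 ran from -0.13 to 0.13 and Klf15 from -0.0633 to 0.33. Between WT sexes, Ebf1 ran from -0.56 to 0.0632 and Klf4 from -0.30 to 0.0070. In the interactions, Zbtb16 (Y665F) ran from -0.0389 to 0.46, Cebpa and Ebf2 (Y665H) from -0.0793 to 0.45 and from -0.047 to 0.45, and Cebpd, Ebf1 and Rxra (between mutants) from -0.29 to 0.13, from -0.0802 to 0.235 and from -0.0088 to 0.19.

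Over all genes, DESeq2 called 2030 (Y665F against WT females), 1782 (Y665H against WT females), 3920 (WT sexes), 1078 (mutant males), 1152, 689 and 687 (the 3 interactions), and the fit over all 24 libraries 250 (Y665H against WT females), 5987 (WT sexes), 400 (mutant males), and 1, 201 and 45 (interactions). Library totals gave 1164 for Y665F against WT females, and 72 and 341 for the interactions of Y665H and between mutants. Without the filter, 83 were called in the last. With 1 library left out, the genes called ran from 67 to 747 (Y665F against WT females), 20 to 1269 (Y665H against WT females), 1554 to 2839 (mutant females), 10 to 220 (mutant males), 251 to 5076 (WT sexes), 0 to 570 and 0 to 1 (Y665F and Y665H against WT males), and 0 to 1686, 0 to 1844 and 5 to 186 (interactions).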

Other observations

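Lymphocyte marker sums were higher in each Y665F library than in the WT libraries of its sex. The 9 T and NK cell markers summed to 45.6 to 73.1 CPM in Y665F males against 13.2 to 21.0 CPM in WT males and 8.05 to 28.5 CPM in Y665H males, and Y665F did not overlap either. Against WT males edgeR called 0 of the 9 genes, with 9 at an unadjusted p under 0.05, as were 2772 of 16240 genes. DESeq2 called 9, where it called 1036 of 16240 genes. In females the sums were 33.6 to 47.4 CPM in Y665F, 10.3 to 14.0 CPM in WT and 7.06 to 21.0 CPM in Y665H, and edgeR called 8 of the 9 genes higher in Y665F than in WT, where 3.33% of 15642 genes were called. B cell markers summed to 23.6 to 33.2 CPM in Y665F females against 7.67 to 13.9 CPM in WT females, with 3 of 8 genes called. Macrophage markers summed to 1160 to 1840 CPM in Y665F females and 806 to 1110 CPM in WT females. Of these 8 genes edgeR called 0, with 4 at an unadjusted p under 0.05, as were 4107 of 15642 genes. DESeq2 called 4, where it called 2030 of 15642 genes.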
